A study of Mus musculus with 6 samples.

Results

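Klrb1f, a gene of the NKR-P1 receptors of natural killer (NK) cells, fell about 3-fold in mouse double negative T (DNT) cells given IL-33, and of 10 killer lectin-like receptor genes it was the one that passed both an adjusted p under 0.05 and a fold change of 1.5, as did 4.87% of the 14671 genes tested. Klrb1c, which encodes the NK1.1 antigen, fell by less, and Klrd1, which encodes CD94, rose slightly. The other 7 genes, Klrk1, Klrc1, Klrc2, Klrg1, Klrb1b, Klra1 and Klra3, did not pass the adjusted p, which 27.5% of all tested genes passed. The 10 genes were chosen by symbol, matched through Ensembl identifiers, out of 26128 genes listed, and all 10 were found and had enough counts to be tested. Another 19 genes named Klr are listed and were read beside them.

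The DNT cells came from adult C57BL/6 mice. CD4+CD25- T cells of the spleen (the study's methods add lymph nodes) had been converted in culture with DBA/2 mature dendritic cells and IL-2, and cells that were CD3+ and lacked NK1.1, CD4 and CD8 had been sorted. All cells then spent 48 h on anti-CD3/CD28 beads, without IL-33 (Control, 3 libraries) or with IL-33 at 50 ng/ml (IL-33, 3 libraries), so the comparison asks what IL-33 adds to stimulation through CD3 and CD28. Neither the labels nor the methods say whether the libraries of a group came from separate mice or cultures, so p-values measure the spread between these libraries, which may be technical. The libraries held 20256342 to 22336050 counted reads, at which 3 counts, taken as the limit of detection, equal 0.134 to 0.148 CPM, counts scaled to a common library total.

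Killer lectin-like receptors are C-type lectin proteins of the surface of NK cells and of some activated T cells. Inhibitory members carry motifs that recruit phosphatases, and activating members signal through adaptor proteins such as DAP10 and DAP12. Many recognise MHC class I or proteins that resemble it, the NKR-P1 receptors recognise Clec2 proteins, and KLRG1 recognises cadherins. In the mouse most of the genes lie together in the NK gene complex on chromosome 6, where rounds of duplication have left near-identical copies.

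Since the copies resemble each other, the annotated transcripts were first compared for stretches that a read could not tell apart. Klrb1f, Klrd1, Klrk1 and Klrg1 had no stretch of 50 bases in common with a transcript of any other gene of GENCODE M21, the mouse gene annotation used here. Of the distinct 50-base stretches of Klrc1, 38.6% also occurred in other genes, 36.6% in Klrc2. The share was 16.3% for Klrc2, 20.7% for Klra3, with Klra9 as the closest gene, and 2.98% for Klra1, with Klra4. Klrb1b shared 27.2% and Klrb1c 17% of their stretches, most of them with Gm44511, a gene model on the same strand that overlaps 599 exonic bases of Klrb1b and 413 of Klrb1c and is not among the genes listed. With stretches of 100 bases the shares fell to 14.6% for Klrc1, 7.09% for Klrc2, 1.78% for Klra3 and 0% for Klra1, but stayed at 22.3% for Klrb1b and 10.8% for Klrb1c. No source used here gives the read length or the treatment of reads with several matches, so the counts of these 6 genes are uncertain in their split, and those of the other 4 are not affected by shared stretches of this length.

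**Figure D1:**
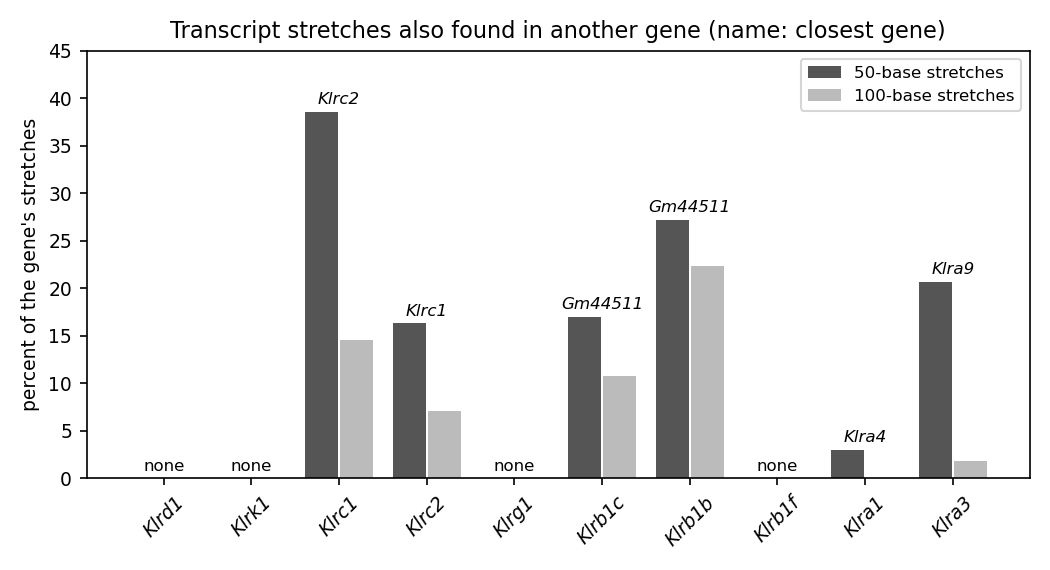
Percent of each gene's distinct transcript stretches of 50 bases (dark bars) or 100 bases (light bars) that also occur in another gene of GENCODE M21, with the closest gene named above the bars. Klrc1 stands highest at 38.6% of its 50-base stretches, and Klrd1, Klrk1, Klrg1 and Klrb1f share none.

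The coding ends of Klrc1 and Klrc2 and the middle of Klrb1b and Klrb1c are shown because they hold the longest coding runs that these pairs of genes share, and Klrb1f is shown beside Klrb1c to show how little they share. Capitals mark the shared run, and lower case marks up to 30 coding bases on each side. The sequences are those of GENCODE M21 transcripts.
Klrc1, coding bases 603 to 732: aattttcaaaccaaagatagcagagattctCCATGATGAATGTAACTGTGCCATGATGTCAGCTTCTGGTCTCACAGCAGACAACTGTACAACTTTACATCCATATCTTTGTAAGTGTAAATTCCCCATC
Klrc2, coding bases 585 to 714: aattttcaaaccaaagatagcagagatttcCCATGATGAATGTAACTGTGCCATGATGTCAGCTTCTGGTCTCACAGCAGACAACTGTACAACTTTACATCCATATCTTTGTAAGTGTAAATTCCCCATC
Klrb1b, coding bases 342 to 476: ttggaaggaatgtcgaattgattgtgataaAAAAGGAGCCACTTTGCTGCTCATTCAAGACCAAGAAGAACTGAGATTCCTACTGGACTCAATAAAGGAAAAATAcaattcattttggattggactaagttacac
Klrb1c, coding bases 486 to 620: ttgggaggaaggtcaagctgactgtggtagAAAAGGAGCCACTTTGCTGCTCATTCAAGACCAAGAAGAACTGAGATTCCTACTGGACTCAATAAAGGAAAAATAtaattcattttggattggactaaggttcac
Klrb1c, coding bases 518 to 593: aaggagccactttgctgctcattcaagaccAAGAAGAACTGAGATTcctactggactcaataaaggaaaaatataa
Klrb1f, coding bases 374 to 449: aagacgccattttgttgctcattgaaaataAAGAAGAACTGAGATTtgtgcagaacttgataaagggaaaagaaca
The shared run was 100 bases long for Klrc1 and Klrc2, 75 for Klrb1b and Klrb1c and 16 for Klrb1c and Klrb1f. Over the aligned coding bases, Klrc1 and Klrc2 were 82.8% identical, Klrb1b and Klrb1c 86.3%, and Klrb1c and Klrb1f 69.9%. Klra1 and Klra3, both of the Ly49 family, were 81.3% identical with a longest run of 22 bases, whereas Klra3 and Klra9 were 95.9% identical with a run of 62 bases.

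Klrb1f encodes NKR-P1F, which binds Clec2 proteins. The gene was annotated on the plus strand at chr6:129045901-129057464 (GRCm38). It had 106, 83 and 103 counts in Control replicates 1 to 3 and 21, 31 and 47 counts in the IL-33 replicates. The highest IL-33 library lay well under the lowest Control library. Its mean level was 4.59 ± 0.464 CPM in Control and 1.52 ± 0.571 CPM with IL-33 (SD, n = 3), all of them above the limit of detection. The log2 fold change was -1.59 (SE 0.226, 95% interval -2.03 to -1.14, adjusted p = 6.11e-09 in edgeR's quasi-likelihood test, Benjamini-Hochberg adjusted), a level with IL-33 of 0.333 times that in Control. When single libraries were left out, the log2 fold change lay between -1.90, without IL-33 replicate 3, and -1.34, without IL-33 replicate 1.

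Klrb1c encodes the activating receptor NKR-P1C, the NK1.1 antigen whose absence was part of the sort, and lies on the minus strand at chr6:128778485-128789215. Its counts were 741, 712 and 669 in Control and 551, 513 and 595 with IL-33. The groups did not overlap, and the transcript was thus counted in every library although the cells had been sorted as NK1.1-. The mean level went from 33.5 ± 2.57 to 25.6 ± 1.16 CPM (SD, n = 3), a log2 fold change of -0.39 (SE 0.072, adjusted p = 7.14e-06). This difference passed the adjusted p but was smaller than 1.5-fold.

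Klrb1b encodes an inhibitory NKR-P1 receptor that recognises the Clec2d protein (chr6:128813706-128826331, minus strand). It had 107, 88 and 75 counts in Control and 69, 62 and 82 with IL-33. The groups overlapped, since IL-33 replicate 3 lay above Control replicate 3. Its log2 fold change of -0.37 (95% interval -0.75 to 0.00) did not pass the test (adjusted p = 0.139). The tested Klrb1 genes had the same sign, but not all of them passed the test. Of 6 listed, 5 were tested, all 5 had a negative log2 fold change, and 3 passed the adjusted p: Klrb1f, Klrb1c and Klrb1a. Over all genes, 7356 of 14671 tested were negative and 27.5% passed. The gene named Klrb1 had 43, 63 and 50 counts in Control and 61, 47 and 41 with IL-33. Its log2 fold change of -0.10 (95% interval -0.57 to 0.38, adjusted p = 0.813) showed no clear change.

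Klrb1a, which encodes NKR-P1A, is the gene outside the 10 that also passed both thresholds. It had 254, 174 and 190 counts in Control and 96, 102 and 124 with IL-33. Every IL-33 library was under every Control library. The mean went from 9.73 ± 1.94 to 4.97 ± 0.566 CPM (SD, n = 3), a log2 fold change of -0.97 (SE 0.145, adjusted p = 3.00e-08). In edgeR's test against a 1.5-fold change, Klrb1a did not pass (adjusted p = 0.113). Klrb1a and Klrb1c were 92.7% identical over their aligned coding bases, and 6.35% of the 50-base stretches of Klrb1a occurred in Klrb1c, so a part of their reads may be split. The study's own PCR primers for Klrb1a are shown because they were designed for this transcript. Over their full length, both matched transcripts of Klrb1a and of no other gene in GENCODE M21. Partial matches to its relatives were not searched.
Klrb1a sense primer: tgggaggaaggtctagttgattg
Klrb1a antisense primer: tctcctgagatagcagcacag
A sum over the Klrb1 genes does not depend on how reads were split among them. It would still depend on shared reads that were dropped or given to Gm44511. The summed level was 49.6 to 59.0 CPM in Control and 36.1 to 40.01 CPM with IL-33. The mean sum was thus lower by 0.53 on the log2 scale with IL-33, and without Klrb1f it was lower by 0.47, from 50.0 ± 4.65 to 36.2 ± 1.66 CPM (SD, n = 3).

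**Figure D2:**
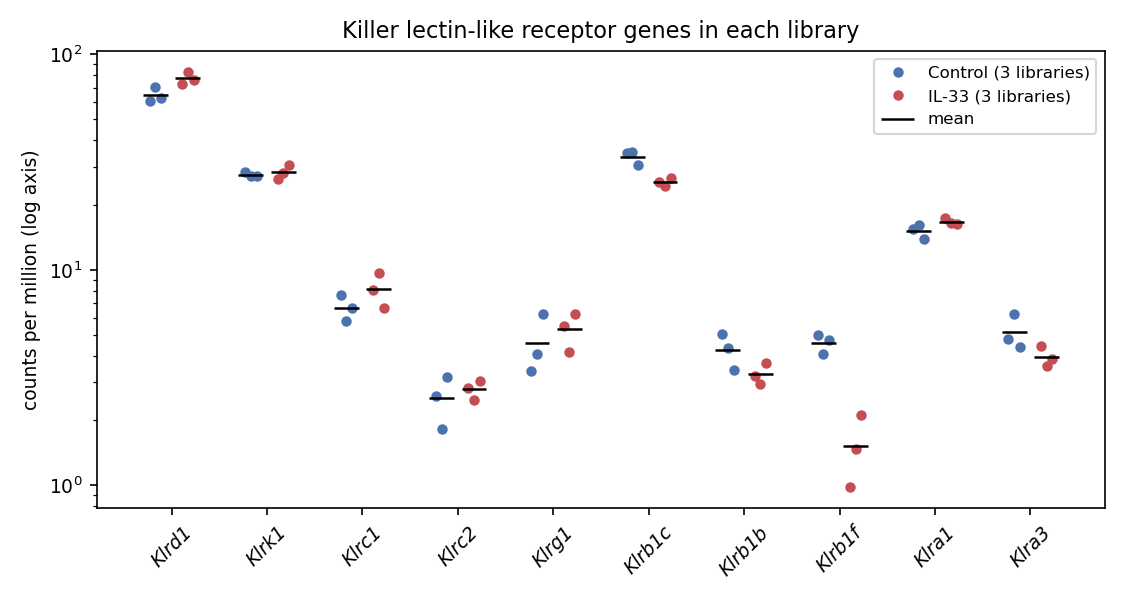
CPM of the 10 genes in each library on a log axis, with Control in blue, IL-33 in red and the mean of each group as a black line. The groups stand apart for Klrd1, Klrb1c, Klrb1f and, narrowly, Klra1, and Klrb1f spans 4.08 to 4.99 CPM in Control and 0.976 to 2.12 CPM with IL-33.

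The sequences before the start sites of the 3 Klrb1 genes are shown because these genes share a sign of change and belong to one duplicated family. RefSeq start sites on GRCm38.p6 were used, which matched 8 of the 10 genes, and bases that GENCODE M21 places in exons were cut off the ends. The sequence shown for Klrb1c lies inside the gene as GENCODE M21 annotates it (chr6:128778485-128789215), since its RefSeq start site does. Capitals mark the longest run shared with the promoter of another Klrb1 gene.
Klrb1f, chr6:129045651-129045900, plus strand: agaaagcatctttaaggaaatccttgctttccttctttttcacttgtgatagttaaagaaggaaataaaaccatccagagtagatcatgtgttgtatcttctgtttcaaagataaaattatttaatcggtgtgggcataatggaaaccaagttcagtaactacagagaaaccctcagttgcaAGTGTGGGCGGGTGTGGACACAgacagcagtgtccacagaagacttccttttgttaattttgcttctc
Klrb1b, chr6:128826332-128826558, minus strand: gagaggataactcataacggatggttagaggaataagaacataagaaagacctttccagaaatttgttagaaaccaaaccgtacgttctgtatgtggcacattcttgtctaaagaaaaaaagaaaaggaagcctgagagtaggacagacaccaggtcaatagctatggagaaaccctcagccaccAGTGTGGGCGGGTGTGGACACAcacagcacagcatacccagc
Klrb1c, chr6:128788642-128788886, minus strand: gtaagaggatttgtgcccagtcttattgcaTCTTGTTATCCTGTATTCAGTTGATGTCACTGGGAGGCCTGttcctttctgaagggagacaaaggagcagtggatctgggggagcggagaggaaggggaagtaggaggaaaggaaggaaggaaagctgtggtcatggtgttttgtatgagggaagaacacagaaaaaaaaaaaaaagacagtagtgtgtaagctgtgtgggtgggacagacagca
The run in capitals is 22 bases long in Klrb1f and Klrb1b and starts 68 and 65 bases before their start sites. The 41-base run of Klrb1c recurs before the RefSeq start site of Klrb1a, which also lies inside its annotated gene (chr6:128609227-128623533). There the run reaches the far edge of the 250 bases read, so the full shared stretch may be longer. Klrb1c and Klrb1f had no run above 10 bases in common. The hexamer TGTGGT on either strand, a core of RUNX sites, occurred in the 250 bases before 5 of the 8 genes (Klrb1c, Klrk1, Klrc1, Klrc2 and Klra1), or before 4 if bases that GENCODE M21 places in exons are left out, since both matches of Klrc2 lie there, and in 14% of 32817 mouse promoters. The letters GGTGTGA of T-box sites and TGANTCA of AP-1 sites, also read on both strands, occurred before none of the 8, against 3.33% and 6.75% of all promoters. The match of Klrb1c lies inside its annotated gene, and such matches describe the letters only.

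Klrd1 encodes CD94, the partner without which NKG2A and NKG2C do not reach the cell surface (chr6:129591782-129598775, plus strand). It had 1292, 1434 and 1372 counts in Control and 1558, 1744 and 1691 with IL-33. All 3 IL-33 libraries lay above all 3 Control libraries. The mean rose from 64.7 ± 5.17 to 77.2 ± 5.46 CPM (SD, n = 3), by 0.26 on the log2 scale (SE 0.051, 95% interval 0.16 to 0.36, adjusted p = 4.92e-05). The rise was 1.19-fold, under the fold threshold.

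Klrc1 encodes NKG2A, the inhibitory partner of CD94, and Klrc2 encodes NKG2C, an activating one. They lie side by side on the minus strand at chr6:129666015-129678973 and chr6:129647496-129660689. Klrc1 had 162, 117 and 145 counts in Control and 173, 203 and 148 with IL-33, and Klrc2 had 55, 37 and 70 against 61, 52 and 68. Both overlapped between the groups. The log2 fold change of Klrc1 was 0.28 (95% interval -0.00 to 0.56, adjusted p = 0.135), and it passed the adjusted p without IL-33 replicate 3, with 0.41 and adjusted p = 0.0383. That of Klrc2 was 0.14 (95% interval -0.32 to 0.59, adjusted p = 0.713). None of the 3 Klrc genes passed edgeR's test, 0 also at an unadjusted p under 0.05, and 0 with limma-voom or DESeq2. A sum over Klrc1, Klrc2 and Klrc3 does not depend on the split of reads among them, but would on shared reads that were dropped. The summed level was 9.72 ± 1.43 CPM in Control and 11.3 ± 1.46 CPM with IL-33 (SD, n = 3), and the ranges overlapped.

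Klrk1 encodes NKG2D, an activating receptor for stress-induced ligands (chr6:129610323-129623864, minus strand). It had 602, 553 and 599 counts in Control and 566, 591 and 682 with IL-33. In CPM the 3 Control libraries lay within the range of the IL-33 libraries. The log2 fold change of 0.04 had a 95% interval of -0.10 to 0.18, which holds no change of 1.5-fold in either direction (adjusted p = 0.739). Klrg1, an inhibitory receptor of cadherins found on differentiated T cells, lies apart from the others at chr6:122270596-122282882 (minus strand). It had 72, 83 and 136 counts in Control and 118, 87 and 139 with IL-33. The spread within the groups was wider than the difference between them, and the log2 fold change was 0.21 (95% interval -0.15 to 0.58, adjusted p = 0.420).

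Klra1 and Klra3 encode the inhibitory MHC class I receptors Ly49A and Ly49C (chr6:130363917-130386874 and chr6:130323289-130337574, minus strand). Klra1 had 327, 329 and 306 counts in Control and 375, 345 and 363 with IL-33. The groups did not overlap, but the log2 fold change of 0.14 (SE 0.098) did not pass the test (adjusted p = 0.303). Klra3 had 101, 127 and 96 counts against 95, 75 and 86. All IL-33 libraries of Klra3 lay under all Control libraries, by 1 count between the closest, but in CPM the ranges overlapped, with a log2 fold change of -0.37 (SE 0.175, adjusted p = 0.106). Of the 13 Klra genes listed, 7 were tested, of which 4 had a positive and 3 a negative log2 fold change. Klra7 rose, from 99.4 ± 2.60 to 112.5 ± 4.42 CPM (log2 fold change 0.18, adjusted p = 2.81e-04), and Klra5 fell, from 14.7 ± 1.21 to 10.4 ± 0.699 CPM (SD, n = 3; log2 fold change -0.50, adjusted p = 1.50e-04). Summed over the Klra genes, the level was 148.6 ± 6.12 CPM in Control and 157.8 ± 4.32 CPM with IL-33.

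Counted together, 3 of the 10 genes passed the adjusted p (Klrd1 higher, Klrb1c and Klrb1f lower), where 27.5% of the 14671 genes tested did. Klrb1f alone passed both thresholds, 1 of 10 beside 4.87% of all genes. The groups did not overlap in CPM for 4 of 10 genes, beside 38.9% of all genes. Of the 10 genes, 6 had a positive and 4 a negative log2 fold change, with a median of 0.09 beside -0.00 over all genes tested. The summed level of the 10 genes was 162.9 to 175.3 CPM in Control and 166.8 to 176.6 CPM with IL-33. The shares of the 10 genes past the adjusted p and without overlap were near those of all genes.

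**Figure D3:**
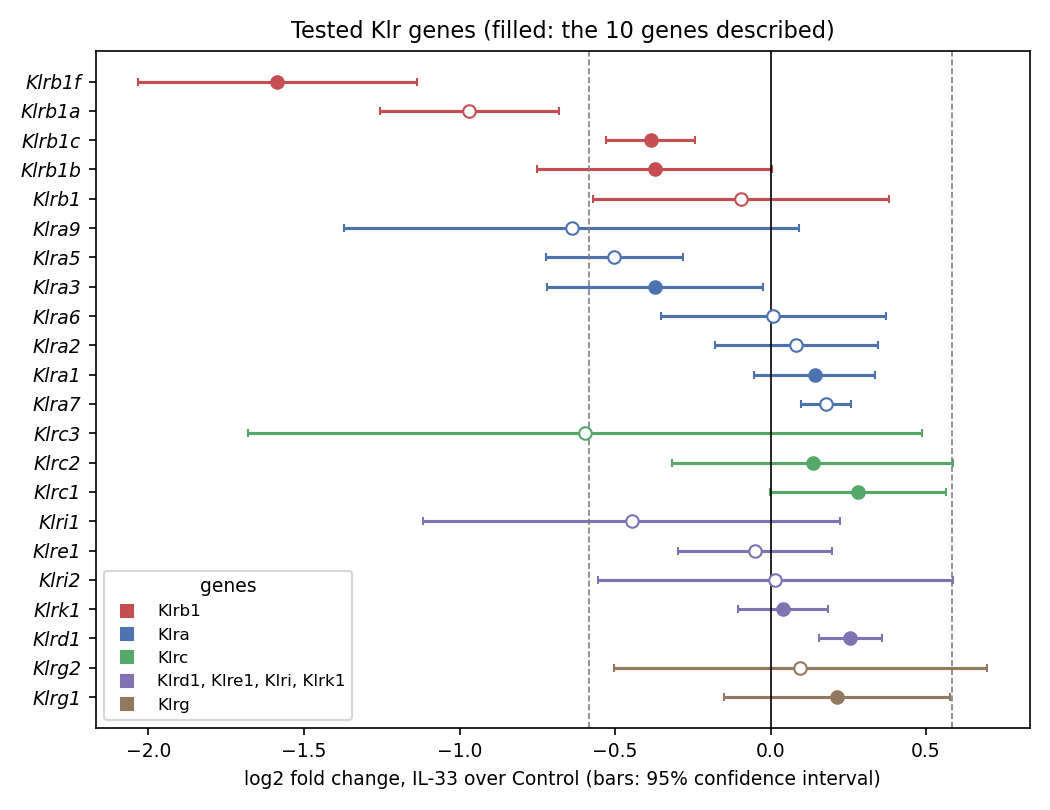
Log2 fold change of IL-33 over Control, with 95% confidence intervals, for the 22 Klr genes tested, by family, the 10 genes described as filled points. Dashed lines mark a 1.5-fold change, and the intervals of Klrb1f and Klrb1a lie wholly beyond the lower one. The intervals are not adjusted for the number of genes tested. In edgeR's test against the fold threshold the adjusted p was 5.83e-04 for Klrb1f and 0.113 for Klrb1a.

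The order of the genes by level was compared per kb of annotated exon, since longer transcripts yield more reads. In Control, Klrd1 stood first at 50.5 CPM per kb, followed by Klrb1c at 11.3 and Klra1 at 8.61 CPM per kb, with no overlap between these neighbours. Klra3, Klrk1, Klrc1, Klrg1, Klrb1f and Klrb1b followed at 4.14 down to 1.91 CPM per kb, and each overlapped the next over the libraries. Klrc2 was lowest at 0.436 CPM per kb. With IL-33, Klrd1 was first at 60.3 CPM per kb, Klra1 at 9.49 stood above Klrb1c at 8.65 CPM per kb without overlap, and Klrb1f at 0.752 overlapped Klrc2 at 0.480 CPM per kb. By mean CPM over the 6 libraries, Klrd1 ranked 3189 and Klrc2 11168 among the 26128 genes listed.

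All of the genes but Klrg1 lie within 1608 kb on chromosome 6, from Klrb1c to Klra1, and Klrg1 lies 6496 kb before them. Of the 10 genes 8 are on the minus strand, and Klrb1f and Klrd1 are on the plus strand. This span holds 57 listed genes, of which 29 were tested, 17 Klr genes and 12 others. None of the 12 others passed both thresholds, and 1 was higher and 3 were lower at the adjusted p, beside 27.5% of all genes. Clec2d and Clec2i, ligands of NKR-P1 receptors, were among the 3, with log2 fold changes of -0.47 and -0.40. The third was BC035044, at -0.43, and the gene that was higher was Cd69, an early activation marker, at 0.41. Klrb1f was the only tested gene of the span past both thresholds. Klrb1a, which also passed both, lies before the start of the span, at chr6:128609227-128623533.

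**Figure D4:**
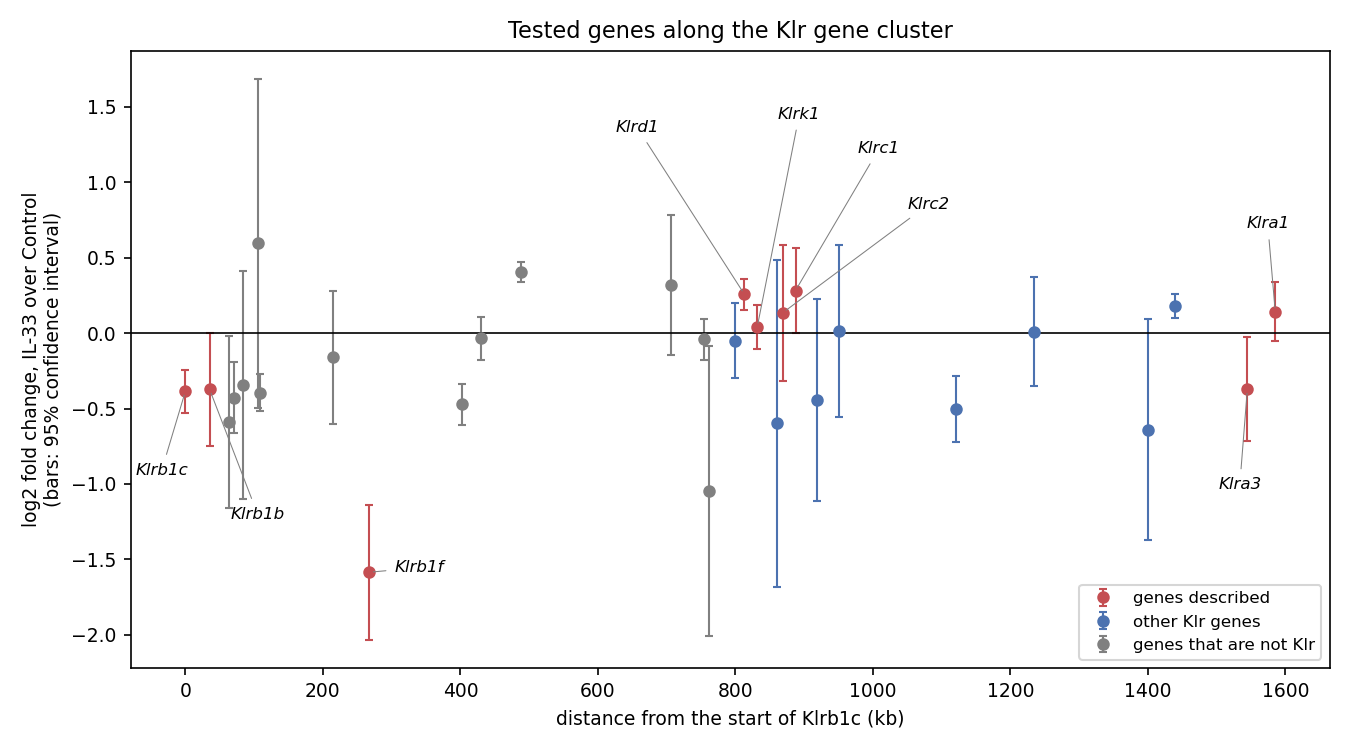
Log2 fold change of IL-33 over Control, with 95% confidence intervals, of the 29 tested genes of the span by distance from the start of Klrb1c in kb. Klrb1f stands lowest at -1.59, and most others lie between -0.6 and 0.4.

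The genes outside the family whose profile over the 6 libraries was most like that of Klrb1f were named by the root mean square difference of centred log2(CPM + 1). Itgae, which encodes the integrin CD103, was nearest at 0.141, with means of 18.2 CPM in Control and 7.77 CPM with IL-33. Mmp25 followed at 0.193, with 5.64 and 2.65 CPM. The likeness is over 6 libraries in 2 groups.

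Of 19 ligand genes for these receptors, 8 were tested. At the adjusted p, which 27.5% of all tested genes passed, 1 was higher and 5 were lower. The median log2 fold change was -0.06. Cdh1, which encodes E-cadherin, a ligand of KLRG1, passed both thresholds, as did 4.87% of all tested genes. It had 2786, 2728 and 3257 counts in Control and 5514, 5614 and 5790 with IL-33, a log2 fold change of 0.92 (SE 0.036, adjusted p = 5.58e-37). All 3 IL-33 libraries of Cdh1 stood far above Control. H2-K1 and H2-D1, the MHC class I genes read by Ly49 receptors, were the most abundant at 3757 and 3167 CPM in Control and 3604 and 3039 CPM with IL-33 (log2 fold change -0.06 for each). These calls of H2-K1 and H2-D1 were lost when replicate 3 of Control, or replicate 2 or 3 of IL-33, was left out, with adjusted p of 0.0715 to 0.0967 and 0.0955 to 0.227, and that of H2-D1 also with DESeq2 (adjusted p = 0.0629).

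All 26 adaptor and signalling genes were tested, and 6 were higher and 7 lower at the adjusted p. Of all genes tested, 27.5% passed it. None of the 26 passed both thresholds with edgeR, DESeq2 or limma-voom, beside 4.87% of all genes with edgeR. The median was -0.04. Hcst and Tyrobp, which encode the adaptors DAP10 and DAP12 of NKG2D and of CD94 with NKG2C, had log2 fold changes of -0.04 and -0.08 (adjusted p = 0.728 and 0.556). Ptpn6, which encodes the phosphatase SHP-1 recruited by inhibitory receptors, fell from 84.0 to 65.3 CPM (log2 fold change -0.36, adjusted p = 3.00e-11). Pik3cd and Sh2d2a, the most abundant genes of the list, had log2 fold changes of 0.21 (adjusted p = 1.42e-10) and -0.00 (adjusted p = 0.986).

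Of 19 transcription factors known to act on NK receptor genes, 6 were higher and 7 lower at the adjusted p. The share over all genes was 27.5%, and the median of the list was -0.07. None of the 19 passed both thresholds with edgeR, DESeq2 or limma-voom, beside 4.87% of all genes with edgeR. Prdm1 passed both without Control replicate 3, with a log2 fold change of 0.61. Id2 and Ets1 were the most abundant, with log2 fold changes of 0.07 (adjusted p = 0.0125) and -0.15 (adjusted p = 6.49e-07). The call of Id2 was lost without IL-33 replicate 3 (adjusted p = 0.0566) and with scaling by total counts (adjusted p = 0.0666). Runx3 rose by 0.42 (adjusted p = 9.70e-21) and Runx1 fell by 0.42 on the log2 scale (adjusted p = 2.79e-14). Prdm1 rose further (log2 fold change 0.55, adjusted p = 9.06e-18) and Zfp683 fell further (log2 fold change -0.52, adjusted p = 3.32e-21). Runx3, Runx1 and Zfp683 were named after their values had been seen, as were Hcst, Tyrobp, Ptpn6 and the genes of the span outside the family.

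Of 18 other receptors of NK type, outside the killer lectin-like family, 17 were tested. At the adjusted p, which 27.5% of all tested genes passed, 11 were higher and 4 lower, and the median was 0.14. Cd300a, an inhibitory immunoglobulin-like receptor, had 13, 10 and 8 counts in Control and 100, 109 and 131 with IL-33, a log2 fold change of 3.41 (SE 0.270, adjusted p = 2.72e-20). Fcgr3, which encodes an Fc receptor of NK and myeloid cells, went from 18.6 to 39.5 CPM (log2 fold change 1.08), and Slamf6 from 8.75 to 15.9 CPM (log2 fold change 0.86). These 3 genes passed both thresholds, all of them higher, beside 4.87% of all tested genes. Il2rb and Lilrb4a were the most abundant, with log2 fold changes of 0.06 and -0.36, and the call of Il2rb was lost without IL-33 replicate 1 (adjusted p = 0.0676) and with scaling by total counts (adjusted p = 0.0648).

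**Figure D5:**
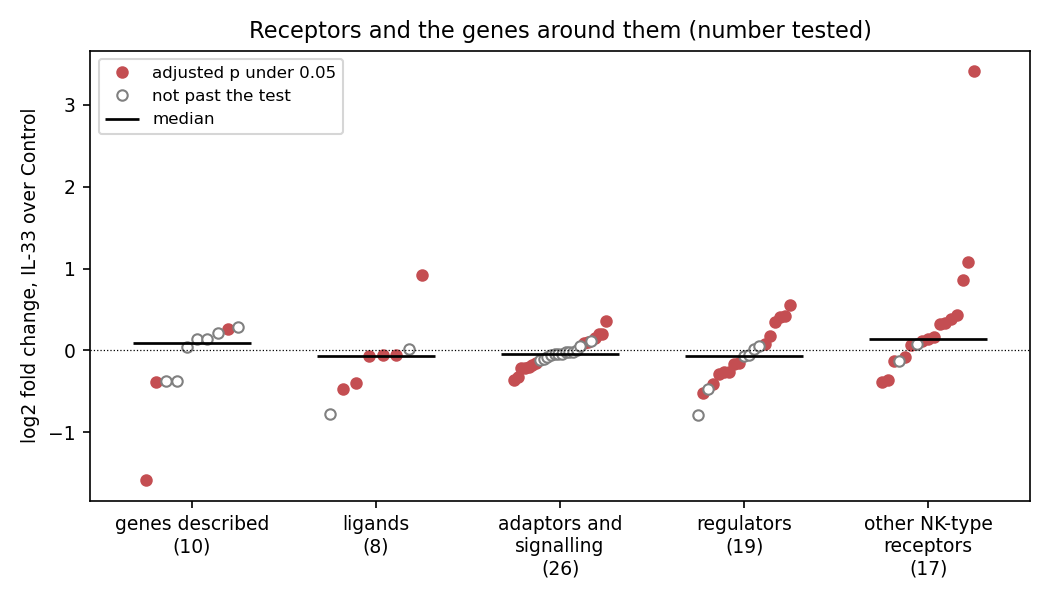
Log2 fold change of IL-33 over Control for the 10 genes described and 4 lists around them, each point a tested gene, red where the adjusted p was under 0.05, with the median of each list as a line. The medians lie between -0.07 and 0.14, Klrb1f is the lowest point and Cd300a the highest.

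Markers of cells that the sort could hold were read beside these values. In bulk RNA, fewer cells of a type and less RNA per cell cannot be told apart. The counts of markers called stand beside 27.5% of all genes at the adjusted p and 4.87% past both thresholds. All 11 T cell markers were detected and tested, at a summed level of 3538 to 3696 CPM in Control and 3643 to 3788 CPM with IL-33. At the adjusted p, 2 were higher (Cd28 and Cd3g) and 2 lower (Cd5 and Lat), and 0 passed both thresholds. Of the genes of the sort, Cd4 had 16 to 22 counts in Control and 5 to 11 with IL-33, but Cd8a, at a mean of 545 CPM in Control and 400.2 CPM with IL-33, had 11394 to 11732 and 8235 to 8830 counts, a log2 fold change of -0.45, and Cd8b1 178 to 232 and 312 to 379 counts. Cd8a RNA was thus counted in every library despite the sort for CD8-, and the call of Cd4 was lost without Control replicate 1 or 2 or IL-33 replicate 2 or 3 (adjusted p = 0.0606 to 0.125). Of 10 NK cell markers, Ncr1, which marks NK cells, had 0 to 5 counts in any library and Klra4 and Klra8 had 0 to 6. The other 7 were tested, 1 higher and 2 lower. The summed level of the list was 16490 to 16990 CPM in Control and 16120 to 16240 CPM with IL-33, most of it Gzma. Eomes had means of 373 and 358 CPM, Adamts14 of 188.5 and 203 CPM and Klre1 of 9.66 and 9.34 CPM. Ncam1 had 0.64 and 0.33 CPM and Klra9 1.23 and 0.785 CPM, with few counts (adjusted p = 0.162 and 0.203). Klrb1c, one of the 10 genes described, is in this list and is one of the 2 lower markers. The other is Gzma (log2 fold change -0.04, adjusted p = 0.0233). Of 8 markers of NKT and gamma-delta T cells, 6 were tested and all 6 were lower with IL-33, 3 of them past both thresholds (Zbtb16, Trdc and Sox13), at a summed level of 405.1 to 430.0 CPM in Control and 346.1 to 359.1 CPM with IL-33. The call of Sox13 was lost without Control replicate 1 or 3 or IL-33 replicate 1 or 3 (adjusted p = 0.0712 to 0.159), with DESeq2 (adjusted p = 0.0799) and without a filter on low counts (adjusted p = 0.0512). Their part in the lower levels of Klrb1f, Klrb1c and Klrb1a was not tested. Of 12 dendritic and myeloid cell markers 6 were tested, 2 higher and 2 lower, at 100.7 to 105.1 and 78.1 to 85.0 CPM in sum, with Lyz2 at 0 to 8 and Flt3 at 0 to 2 counts. Of this list Itgax, which encodes the integrin CD11c, passed both thresholds and fell from 54.6 to 26.0 CPM (log2 fold change -1.07, adjusted p = 4.26e-28), and Itgam, which encodes CD11b, passed both and rose from 2.62 to 4.83 CPM (log2 fold change 0.88, adjusted p = 1.29e-04). H2-Ab1, an MHC class II gene, had 483 to 584 counts in Control and 626 to 677 with IL-33 (log2 fold change 0.29, adjusted p = 0.00123). H2-Aa, another, had 4 to 10 and 2 to 5 counts and was not tested. Cd74 of the same list fell, from 5.66 to 3.78 CPM (log2 fold change -0.58, adjusted p = 0.00543). Of 6 B cell markers 3 were tested and 0 passed. Of 9 mast cell and basophil markers 3 were tested and 1 was lower, Cpa3. Their part in these results was not tested either.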

How the data were processed

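The values used were raw read counts per gene as deposited by the authors, with no scaling. A column of signal, a mean over the libraries after scaling, was also deposited by the authors and was not used. The submitters' processing notes name Bowtie 0.12.2 and the build mm8, with no role given. The labels name an Illumina TruSeq kit and the study's methods an NEBNext Ultra kit, and the use of strand in counting is not given in the sources used here. Positions, lengths and transcripts are those of GENCODE M21 (GRCm38), matched by Ensembl identifier for 26072 of 26128 genes, not coordinates of the deposited file.

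Genes were filtered with filterByExpr (minimum count 10, minimum total 15), which kept 14671 genes and removed 0.11% of counts. They were scaled by TMM and tested with edgeR's quasi-likelihood test (robust, two-sided, no covariates), with p values adjusted by Benjamini-Hochberg over every tested gene. All adjusted p values come from this test unless another is named. The thresholds were an adjusted p of 0.05 and a log2 fold change of 0.585. With 3 libraries a group, an exact permutation test cannot go below p = 0.1. The tools were edgeR 4.0.16, DESeq2 1.42.0 and limma 3.58.1 under R 4.3.3, and Biopython 1.88. No 2 replicates agreed within sampling noise (chi-square per gene 2.64 to 3.67).

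The 10 genes and the lists were chosen with earlier results of these data known. All 10 were named, and from the lists of other Klr genes, ligands, adaptor and signalling genes, regulators and other NK-type receptors the genes past both thresholds and the 2 most abundant. Markers and other genes were named by choice.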

Additional observations from a re-analysis of the deposited data

How the results depend on the processing

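The counts of genes past both thresholds and the log2 fold changes of most named genes were recomputed under 14 alternatives (12 for Cd4, which had no adjusted p in DESeq2 and did not reach 1 CPM in every library of a group): DESeq2, limma-voom, other scalings, other filters on low counts, a replicate block, a test against the fold threshold, and each library left out. The family sums were recomputed with total counts and with each library left out, and kept their sign. Klrb1f passed both thresholds in all 14, with log2 fold changes from -1.90 to -1.34 and an adjusted p of up to 5.83e-04, the highest from the test against the fold threshold. That test called 113 genes, against 714 in the main comparison and 550 to 724 under the other planned tests, scalings and filters, and 621 to 719 with a library left out. Among the 10 genes it called 1 rather than 3, since Klrd1 and Klrb1c changed by less than 1.5-fold. Among the other Klr genes it called 0 rather than 1. Klrb1a, at a log2 fold change of -0.97, had an adjusted p of 0.113 in that test. Of the other NK-type receptors it called 2 rather than 3. With a library left out, 3 to 4 of the 10 genes had an adjusted p under 0.05, and 0 to 1 regulators passed both thresholds. The sign changed without Control replicate 2 for Hcst (0.0279, range over libraries left out -0.1160 to 0.0279) and Tyrobp (0.0025, range -0.2039 to 0.0025), for Klrk1 without IL-33 replicate 3 (-0.0182, range over libraries left out -0.0182 to 0.0947), for Klrc2 without Control replicate 2 (-0.0511, range -0.0511 to 0.3373) and for Sh2d2a without Control replicate 2 or IL-33 replicate 2 (0.0008 and 0.0151, range -0.0068 to 0.0151). Same-numbered libraries deviated together with correlations of 0.012, 0.003 and 0.011. Each number correlated best with its own, but only just. Values this small cannot show whether the numbers pair the samples. With the replicate block 666 genes passed both thresholds and 1 and 3 of the 10 genes passed as before, but the calls of H2-K1 (adjusted p = 0.0744), H2-D1 (0.0982), Il2rb (0.0590) and Sox13 (0.0611) were lost. The counts of Klrb1f, Klrb1b, Klrc2, Klrg1 and Klra3 were under 150 in every library, which limits their precision, and the split of shared reads among Klrc, Klrb1 and Klra genes cannot be checked from counts.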
